A study of Mus musculus with 48 samples.

Results

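The genes described here are 8 mouse genes of fatty acid oxidation and of the response to the nuclear receptor PPAR alpha: *Ppara*, *Cpt1a*, *Ehhadh*, *Hadha*, *Acadm*, *Acadl*, *Fgf21* and *Pdk4*. They were chosen by name, and not by their values, and every probe whose target transcript carried one of these names was taken. That gave 10 probes of 41174 on the array, and 8 of 18434 named genes. *Cpt1a* and *Fgf21* had 2 probes each, and the other genes had 1.

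The samples came from C57/BL6 mouse offspring. Their mothers, and later the offspring themselves, received either a diet supplemented with selenium and folate (H) or one marginally deficient in both (L). By the study's methods, both nutrients were above the recommended requirement in diet H and below it in diet L. Group names put the dam's diet first and the diet fed to her offspring from weaning second. HH mice were on diet H throughout and LL mice on diet L throughout. At weaning HL mice changed from diet H to diet L, and LH mice from diet L to diet H. Per the study's methods all of these diets were high in fat, the offspring were male, and they were fasted and then fed again before sampling. Liver and colon were taken at 12 weeks of age, with 6 arrays per group and tissue, and each array carried mouse RNA in the Cy3 channel and a common reference RNA in the Cy5 channel. The labels show that 2 of the 6 HH liver arrays came from the same mouse, so that 5 HH mice, 6 HL, 6 LH and 6 LL mice entered the liver comparisons and 6 of each group the colon comparisons. The question asked of each gene was whether its level in liver or colon differed with the diet of the dam, with the diet of the offspring, or with a change between them. All values below are log2 ratios of mouse over reference RNA, in which 1 unit is a doubling, and a negative value means only that the reference RNA held more of the transcript.

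PPAR alpha is a transcription factor that binds fatty acids and turns on the genes for their uptake and breakdown, above all in the fasting liver. Long-chain fatty acids enter the mitochondrion through the carnitine shuttle and are then shortened by repeated beta oxidation, while very long and dicarboxylic chains are first shortened in the peroxisome. The liver sends out part of the product as ketone bodies, and it also secretes the hormone FGF21 under the same receptor.

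*Ppara*, which encodes the receptor itself, lies at chr15:85734910-85806851 of GRCm38.p6. *Cpt1a* encodes the carnitine palmitoyltransferase of the outer mitochondrial membrane, the controlled step of the shuttle, and lies at chr19:3322326-3385735. *Acadl* (chr1:66830839-66863309) and *Acadm* (chr3:153922353-153944643) encode the long-chain and medium-chain acyl-CoA dehydrogenases that begin each round of beta oxidation, and *Hadha* (chr5:30119423-30154980) encodes the alpha subunit of the mitochondrial trifunctional protein that carries out its later steps. The bifunctional enzyme of the peroxisome is encoded by *Ehhadh* (chr16:21761285-21787834). *Fgf21* (chr7:45613890-45615490) encodes the hormone, and *Pdk4* (chr6:5483351-5496278) encodes a kinase that switches off pyruvate dehydrogenase and so spares glucose when fat is burnt. RefSeq gave these positions, and where in the transcript each probe lies was not analysed here.

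The promoters were searched for the letters of a PPAR alpha response element. A response element of this receptor joins a pair of half-sites, each like AGGTCA, with 1 base between them. All 8 genes had a promoter of 300 bases in RefSeq, from 250 before the start to 50 after it. For *Ppara* and *Cpt1a* that start lay inside the gene span given above, and not at its first base. Searched on both strands, AGGNCA repeated after 1 base of any kind was in 0 of the 8 and in 0.381% of 32841 mouse promoters of this length. With any base also allowed in the first place of the first copy (NGGNCA, then 1 base, then AGGNCA, which takes in all matches of the former) it was in 0 of the 8 and in 0.798% of all. The single half-site AGGTCA was in 2 of the 8, *Cpt1a* and *Acadm*, and in 16.3% of all promoters. The E-box CACGTG, a letter sequence that reads the same on both strands and that clock factors are known to bind, was in *Fgf21* and in 7.15% of all. The 250 bases before the start are given for these 3 genes and for *Pdk4*, the gene whose tissue pattern below differs from the others, with matches in capitals (TGACCT is AGGTCA on the other strand). A match is a match of letters only, and a window without one says nothing of the receptor.
Cpt1a, chr19:3323051-3323300, plus strand: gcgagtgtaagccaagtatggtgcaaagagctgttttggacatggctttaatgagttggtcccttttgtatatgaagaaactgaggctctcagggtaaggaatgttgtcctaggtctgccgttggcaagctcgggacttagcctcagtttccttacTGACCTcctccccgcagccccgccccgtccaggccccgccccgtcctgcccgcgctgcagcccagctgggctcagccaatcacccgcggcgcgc
Acadm, chr3:153944644-153944893, minus strand: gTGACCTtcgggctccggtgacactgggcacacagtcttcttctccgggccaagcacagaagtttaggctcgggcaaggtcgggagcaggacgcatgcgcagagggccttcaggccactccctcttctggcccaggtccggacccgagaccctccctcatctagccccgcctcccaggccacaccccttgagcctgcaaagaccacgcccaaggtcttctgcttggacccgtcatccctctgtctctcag
Fgf21, chr7:45615491-45615740, minus strand: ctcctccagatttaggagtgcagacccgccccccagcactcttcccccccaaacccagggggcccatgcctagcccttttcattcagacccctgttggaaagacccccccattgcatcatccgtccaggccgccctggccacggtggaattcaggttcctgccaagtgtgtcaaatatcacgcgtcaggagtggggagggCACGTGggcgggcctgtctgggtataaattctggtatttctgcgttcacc
Pdk4, chr6:5496279-5496528, minus strand, no match: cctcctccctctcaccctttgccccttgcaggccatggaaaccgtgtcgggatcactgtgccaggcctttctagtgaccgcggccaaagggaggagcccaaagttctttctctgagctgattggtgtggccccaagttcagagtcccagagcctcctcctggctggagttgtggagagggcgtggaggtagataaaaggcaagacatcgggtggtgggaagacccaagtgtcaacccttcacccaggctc

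Signal was ample for these genes in all but 1 case. Between 55.1% and 66% of spots on a liver array and between 66.8% and 73.7% on a colon array were well above background in Cy3, and 102 to 261 spots per array were marked as outliers by the scanner software and left out. All probes of the 8 genes were well above background on all 24 arrays of each tissue apart from those for *Fgf21* in the colon. *Ppara* and the brighter *Cpt1a* probe were printed in 10 spots, whose median SD within an array was 0.12 and 0.09. On the 2 arrays of the one HH liver mouse, the brighter *Fgf21* probe read 3.75 and 3.77, *Ehhadh* 1.09 and 1.06, *Ppara* 0.40 and 0.38 and *Pdk4* -1.19 and -1.11, while the widest gap among the 10 probes was -0.23 for *Acadl*, against a median absolute difference of 0.11 over all bright probes. For *Acadl* that gap was about as large as the SD between liver mice (0.26), while the gaps of the other 9 probes were smaller than theirs. Only the sample labels show that the other arrays came from separate mice, and they name no dam or litter. Whether mice of a group shared a litter is therefore not known. The tests set differences against the spread between mice, and not between litters.

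The tissues carried the markers of their labels, with *Aqp8* as the exception. Marker sums here are of Cy3 signals not normalized between arrays. The summed Cy3 signal (log2) of the 4 measured of 6 hepatocyte markers was 18.42 to 19.42 in liver and 14.32 to 15 in colon, with *Alb* at a mean ratio of 0.80 in liver and -4.25 in colon. That of the 8 colonocyte and goblet markers was 18.55 to 19.46 in colon and 13.94 to 15.37 in liver, and *Aqp8* alone of the 8 was higher in liver (0.19 against -3.41). Smooth muscle markers (6 of 6) summed to 17.89 to 18.88 in colon and 12.16 to 13.93 in liver. The 5 measured of 6 adipocyte markers spread from 11.58 to 17.11 in colon and from 9.02 to 14.37 in liver, the highest liver value being LH replicate 4. Myeloid and Kupffer markers (6 of 7) lay between 12.82 and 15.64 in liver, highest in HH replicate 3, and between 11.43 and 15.38 in colon, where LL replicate 4 held the highest value and every other mouse was at 12.08 or below. Erythroid markers (3 of 4) ran from 13.25 to 15.01 in liver and from 12.06 to 13.29 in colon. Skeletal muscle markers (6 of 6) ran from 13.63 to 14.97 and from 14.86 to 15.47, and pancreatic acinar markers (5 of 6) from 9.52 to 14.33, reached by liver HL replicate 1, and from 10.79 to 11.32. *Xist* was above a log2 Cy3 signal of 8.5 in 2 of 23 liver and 6 of 24 colon mice, which goes against the male sex given in the methods, and the counts of called probes below were the same without them. What part any of these markers have in the results below was not tested.

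Fatty acid oxidation genes were higher in liver than in colon, by amounts that ran from 1.56-fold for *Cpt1a* to 5.69-fold for *Ehhadh* among genes measured in both tissues. At a fold change over 1.5 and a false discovery rate (FDR) under 0.05 in limma over all probes, 9 of the 10 probes were higher in liver and 0 were higher in colon. Over all 41171 probes tested, 30.3% passed in either direction, 14.6% higher in liver and 15.7% higher in colon, and 71.2% had an unadjusted p under 0.05, as 9 of the 10 did. The median difference of the 10 probes was 1.41, against 0.01 over all probes. The exception was *Pdk4*. The methods describe 6 offspring per group with both tissues taken, so liver and colon may share animals. The labels do not tie the samples of a mouse together, and both this test and that of diet differences between tissues treated all samples of the tissues as separate mice. In whole tissue, a higher share of cells that express a gene and more RNA per cell cannot be told apart.

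*Ppara* ranged from 0.39 to 2.18 with a median of 1.62 over 23 liver mice, and from -0.23 to 0.61 with a median of 0.35 over 24 colon mice. The mean difference was 1.33 (SE 0.09, 95% interval 1.15 to 1.5, adjusted p = 2.15e-18), or 2.51-fold. The tissues overlapped only through HH liver replicate 3, whose 0.39 lay far below the 1.26 of the next lowest liver mouse, and whose 2 arrays gave nearly the same value.

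*Cpt1a* overlapped more between tissues. Its brighter probe (A_51_P427674) ranged from 0.08 to 1.40 in liver (median 0.62) and from -0.38 to 0.29 in colon (median 0.02), a difference of 0.64 (SE 0.07, adjusted p = 2.5e-11). The dimmer one (A_52_P219753) ranged from -0.06 to 2.34 in liver and from -0.39 to 1.02 in colon, and differed by 0.72 (SE 0.14, adjusted p = 7.71e-06). Over mice the 2 probes went together, with r = 0.90 in liver and 0.70 in colon as deviations from the group means.

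*Acadl* and *Acadm*, the dehydrogenases, did not overlap between the tissues. *Acadl* ranged from 0.22 to 1.17 in liver and from -1.47 to -0.28 in colon, with medians of 0.77 and -1.02 and a difference of 1.69 (SE 0.09, adjusted p = 7.02e-22). *Acadm* ranged from -1.03 to 0.16 in liver and from -2.22 to -1.48 in colon, with medians of -0.49 and -1.95 and a difference of 1.5 (SE 0.08, adjusted p = 2.91e-21). *Hadha* showed the smaller step of 0.81 (SE 0.08, adjusted p = 3.96e-12), from a colon range of -0.13 to 0.83 to a liver range of 0.58 to 1.63 that overlapped with it.

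The peroxisomal *Ehhadh* was 5.69-fold higher in liver. It ranged from -0.18 to 1.53 over liver mice (median 0.62) and from -2.23 to -1.51 over colon mice (median -1.93), so that no colon mouse came near the lowest liver mouse. The difference was 2.51 (SE 0.12, 95% interval 2.27 to 2.74, adjusted p = 1.21e-23), with the lowest adjusted p of the 10 probes.

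*Fgf21* was measured in every liver and in almost no colon. Its brighter probe (A_52_P235347) ranged from 0.80 to 4.96 in liver with a median of 2.98, and in colon it was well above background on 1 of 24 arrays, LH replicate 4, at 0.40. The second probe (A_51_P315925) ranged from 0.58 to 3.41 in liver and was well above background on 0 of 24 colon arrays. As bounds, liver was at least 11.7-fold higher by the first probe and at least 3.02-fold higher by the second. These set the liver mean of normalized Cy3 signal against the lowest colon signal that counted as above background, or the probe's own signal where higher. The bounds were not tested. In limma the log2 ratios differed by 3.65 and 1.74 (adjusted p = 1.13e-21 and 2.7e-14), with colon ratios that were almost all near background. Over mice the 2 probes had r = 0.74 in liver and -0.11 in colon, where both were dim. The other 23 colon mice read -0.85 to -0.18 by the first probe.

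*Pdk4* did not differ detectably between tissues. It ranged from -3.16 to -0.95 in liver (median -2.26) and from -2.90 to -1.23 in colon (median -2.11), and the whole colon range lay within that of the liver. The difference was -0.08 (SE 0.15, 95% interval -0.39 to 0.22, adjusted p = 0.643).

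Of the 10 probes, 5 had no overlap between the mice of the tissues (*Ehhadh*, *Acadm*, *Acadl* and both *Fgf21* probes), against 22.7% of all probes. Each slide held 1 tissue, so slide entered only as a random block, and the same number of probes, 9, passed with it. The scale of the difference rests on the normalization. With each array centred on its median in place of the loess curve, the median of all probes moved to 0.215 and 7 of the 10 passed: both *Cpt1a* probes (0.19 and 0.10) and *Hadha* (0.20) then lay at or under the shift of all probes, and *Pdk4* passed as lower in liver (-0.69, adjusted p = 2.18e-05). *Ehhadh*, *Acadl*, *Acadm*, *Ppara* and *Fgf21* stayed higher in liver under every alternative tried.

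**Figure D1:**
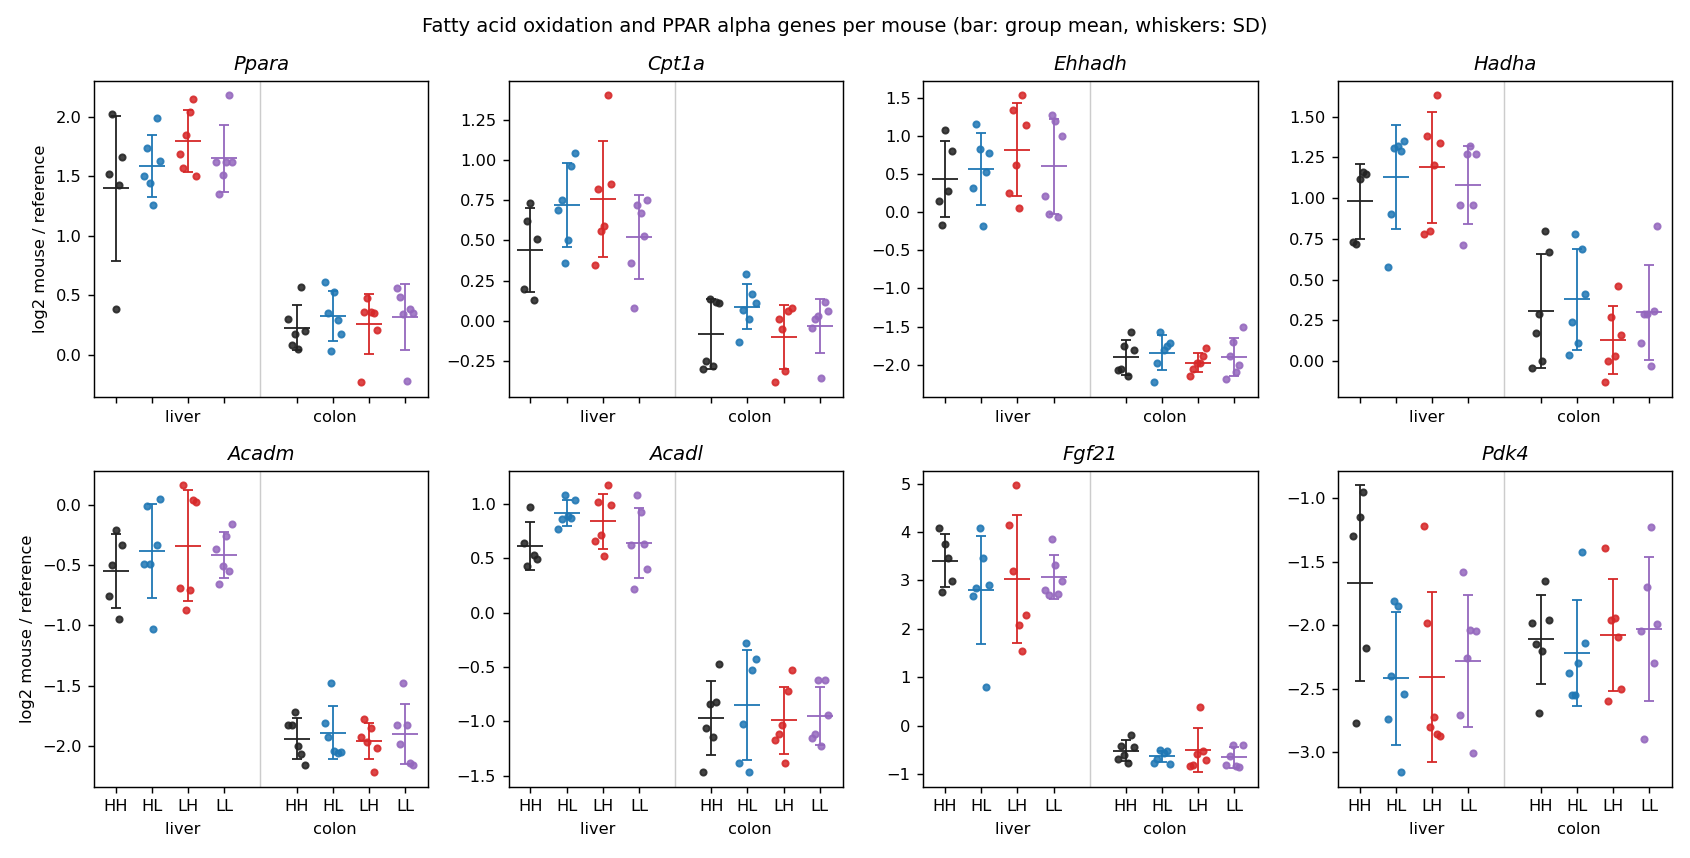
Log2 ratio of mouse over reference RNA (vertical axes, own scale for each gene) for each mouse of the 4 diet groups in liver (left of the grey line) and colon (right); points are mice, the horizontal bar is the group mean and whiskers are the SD, with 5 mice in HH liver and 6 in every other group. *Cpt1a* is drawn for probe A_51_P427674 and *Fgf21* for A_52_P235347. Each liver group mean stood above every colon group mean for every gene but *Pdk4*, the single low *Ppara* point in HH liver is replicate 3 at 0.39, and within a tissue the diet groups overlapped throughout.

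Most genes of the pathway around these 8 were also higher in liver. Of 16 mitochondrial beta oxidation genes measured, members included, 14 passed as higher in liver and none as lower, with a median difference of 1.56, and the other 2 (*Hadh* at 0.52 and *Acads* at 0.19) missed the fold threshold. In the peroxisome 12 of 14 passed as higher, led by *Amacr* (3.80), *Scp2* (3.44) and the thiolase gene *Acaa1b* (3.34), while *Acot8* (-0.08) and *Abcd2* (0.07) did not pass. All 6 measured genes of microsomal omega oxidation (7 listed) were higher in liver, with *Cyp4a14* at 9.81, and so were all 4 genes of ketone body synthesis. Over all 18433 named genes tested, 3420 were higher and 4199 lower in liver.

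Entry and regulation were mixed. Of 11 genes of the carnitine shuttle, 6 were higher in liver and the brain isoform *Cpt1c* (-0.59) was lower. Of 12 genes of fatty acid uptake and activation, 7 were higher, with *Fabp1* at 8.47 and *Slc27a5* at 6.61, and 3 were lower, *Acsl3* (-1.49), *Slc27a4* (-0.87) and the adipocyte binding protein *Fabp4* (-3.22). Of the 12 receptors and coactivators, 4 were higher in liver (*Nr0b2*, *Rxrg*, *Rxra* and *Ppara*) and 4 were lower (*Ppargc1a* at -1.83, *Ppargc1b* at -1.40, *Pparg* at -1.35 and *Ppard* at -0.91). *Ppara* was thus the 1 of the 3 PPAR genes that was higher in liver. Among 20 further PPAR alpha targets, *Fgf21* and *Pdk4* included, 14 were higher and 3 were lower in liver, the latter being *Cidec* (-2.62), *Ucp2* (-1.96) and *Hilpda* (-0.91). *Cidec* and *Fabp4* are also made in fat, and the adipocyte markers were higher in colon for 5 of 5.

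**Figure D2:**
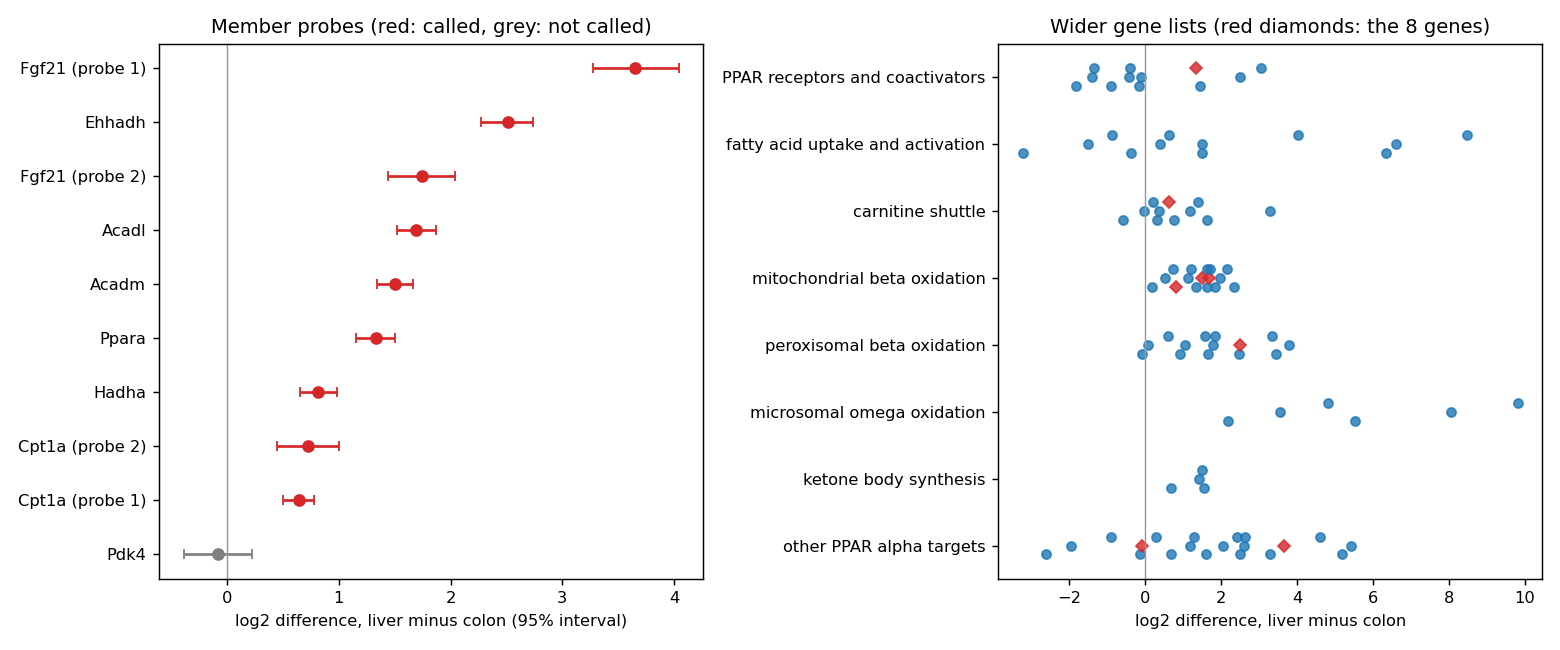
Left, log2 difference of liver minus colon for the 10 probes with 95% intervals (red passed FDR under 0.05 and a fold change over 1.5, grey did not; probe 1 is the brighter of a pair). Right, the same difference for each gene of 8 wider lists, 1 point per gene, with the 8 genes as red diamonds. *Pdk4* sat at -0.08, and the other 7 probes of genes measured in both tissues lay between 0.64 and 2.51. The *Fgf21* probes are drawn at their fitted values, for which the text gives lower bounds, and mitochondrial, peroxisomal, omega oxidation and ketone genes lay almost wholly to the right of 0.

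None of the 8 genes was called for diet. In each of the 6 pairwise comparisons of the 4 groups, in the dam diet, offspring diet and interaction contrasts, and in both tissues, 0 of the 10 probes passed FDR under 0.05 in limma with a fold change over 1.5, where 0% of all probes passed as well. That count of 0 stood under each alternative of background, normalization, channel, block, weights and mice left out. At an unadjusted p under 0.05, liver had 2 of 10 probes for HL *vs.* HH (4.38% of all probes), 0 for LL *vs.* HH (3.45%), 1 for LL *vs.* HL (3.08%), 0 for LL *vs.* LH (6.38%) and 0 for LH *vs.* HL (1.74%). The dam diet and offspring diet contrasts had 0 each, against 4.14% and 1.37% of all probes. No pair of diet groups was without overlap for any of the 10 probes, against 1.53% of all probes for LH *vs.* HH in liver and 0.199% for HL *vs.* HH. The group means did have an order in liver, where HH was lowest of the 4 groups for 6 of 8 genes, *Ppara*, *Cpt1a*, *Ehhadh*, *Hadha*, *Acadm* and *Acadl*, and highest for the remaining *Fgf21* (brighter probe; by the second, LH was highest) and *Pdk4*. The count of 6 fell to 5 without HH replicate 3, where the *Ppara* mean of HH became 1.66 and that of HL was the lowest (1.59), and to 4 without HH replicate 2, where *Ehhadh* and *Acadl* dropped out. Since the same HH mice stand in each of those comparisons, the 3 sets of differences against HH are not separate evidence, and the values are given side by side.

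For HH *vs.* LH in liver, 8 of 10 probes had a higher mean in LH, with a median difference of 0.22 against -0.01 over all probes. Marker lists moved by as much or more in that comparison. The median difference was 0.28 for the 4 measured hepatocyte markers and -0.39 for the 6 measured myeloid and Kupffer markers. A link between these shifts and that of the 10 probes was not tested. At an unadjusted p under 0.05 stood 1 of the 10 probes, *Pdk4*, against 12% of all probes. The lowest adjusted p among the 10 was 0.408. With slide as a block, 4 of 10 were under an unadjusted 0.05 (*Ppara*, both *Cpt1a* probes and *Pdk4*), against 14.8% of all probes in that fit, and the lowest adjusted p was 0.272, for *Ppara* at 0.44.

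*Ppara* read 1.52, 2.02, 0.39, 1.43 and 1.66 in the 5 HH livers. It ran from 1.26 to 1.99 in HL (median 1.57), from 1.5 to 2.15 in LH (1.77) and from 1.35 to 2.18 in LL (1.62). Apart from the one HH mouse, every liver lay between 1.26 and 2.18. LH exceeded HH by 0.40 (SE 0.21, 95% interval -0.03 to 0.83, adjusted p = 0.455), and without HH replicate 3 the difference was 0.14 (unadjusted p = 0.379). That mouse also had the highest summed myeloid and Kupffer markers of the HH livers (15.64, against 12.82 to 14.18).

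*Cpt1a* read 0.20, 0.62, 0.73, 0.13 and 0.51 in HH livers. The other groups ran from 0.36 to 1.04 in HL, 0.35 to 1.40 in LH and 0.08 to 0.75 in LL, with medians of 0.72, 0.70 and 0.60 against 0.51 in HH, and all of them overlapped. LH minus HH was 0.33 (SE 0.17, adjusted p = 0.444) for the brighter probe and 0.66 (SE 0.34, adjusted p = 0.458) for the dimmer. LH was the higher array on 5 of 6 slides for both probes. Those 6 slides hold only 5 HH mice, since the same HH mouse recurs among them. By the brighter probe, the slides of that mouse read 0.74 in HH against 0.56 in LH, and 0.71 against 0.85. By the dimmer probe, they read 1.15 against 0.75, and 1.35 against 1.46. Both probes were under an unadjusted 0.05 in the interaction contrast, the LL minus LH difference less the HL minus HH difference, at -0.52 (adjusted p = 0.398) and -1.01 (adjusted p = 0.429).

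The dehydrogenase *Acadl* read 0.64, 0.43, 0.97, 0.53 and 0.49 in HH livers. HL mice ran from 0.77 to 1.08 and were the tightest group (SD 0.12), and LH ran from 0.52 to 1.17 and LL from 0.22 to 1.08. All 6 HL mice lay above 4 of the 5 HH mice, and replicate 3 of HH lay among them. HL minus HH was 0.31 (SE 0.14, unadjusted p = 0.0366, adjusted p = 0.952) and LH minus HH 0.23 (SE 0.14, adjusted p = 0.52), while LL differed from HH by 0.03. The interaction was -0.51 (SE 0.19, 95% interval -0.90 to -0.11), with the lowest adjusted p of any diet contrast over the 10 probes, 0.34. In that contrast 3 of 10 probes were under an unadjusted 0.05, against 11.4% of all probes.

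For *Acadm*, *Hadha* and *Ehhadh* the differences were small beside the spread. *Acadm* read -0.76, -0.50, -0.21, -0.95 and -0.33 in HH livers and ran from -0.87 to 0.16 in LH, a difference of 0.21 (SE 0.20, adjusted p = 0.718). *Hadha* read 0.73, 0.72, 1.12, 1.16 and 1.15 in HH and ran from 0.78 to 1.63 in LH, a difference of 0.21 (SE 0.16, adjusted p = 0.639). *Ehhadh* read 0.15, -0.17, 1.07, 0.28 and 0.80 in HH and ran from 0.05 to 1.53 in LH, a difference of 0.40 (SE 0.31, adjusted p = 0.643). The LH mice of *Acadm* fell into 3 between -0.87 and -0.69 and 3 between 0.02 and 0.16, the latter above every HH mouse. In HL and LL the means of these 3 genes were 0.11 to 0.17 above HH.

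*Fgf21* had the largest spread of the 8 genes in liver. By the brighter probe the HH livers read 4.08, 2.76, 3.76, 3.46 and 2.98, and HL ran from 0.80 to 4.08, LH from 1.55 to 4.96 and LL from 2.71 to 3.86. LH minus HH was -0.37 (SE 0.53, 95% interval -1.46 to 0.72, adjusted p = 0.831), and the second probe gave 0.02 (SE 0.42, adjusted p = 0.992) with a sign that turned under several alternatives. The highest and the second lowest of the 23 livers, 4.96 and 1.55, were both LH.

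*Pdk4* read -1.30, -2.77, -1.15, -0.95 and -2.18 in HH livers, where 3 of 5 mice lay above all 6 HL and all 6 LL mice. HL ran from -3.16 to -1.81 (median -2.47), LH from -2.87 to -1.22 (median -2.76, 5 of 6 at -1.98 or lower) and LL from -3.01 to -1.58 (median -2.16). The differences from HH were -0.74 for LH (SE 0.35, unadjusted p = 0.0456, adjusted p = 0.408), -0.75 for HL (SE 0.35, unadjusted p = 0.0421, adjusted p = 0.952) and -0.61 for LL (SE 0.35, adjusted p = 1). On single slides LH was lower than HH on 4 of 6, by a median of -1.14 and a range of -1.77 to 0.79, and HL on 5 of 6. Those 6 slides hold only 5 HH mice, since 2 of them carried the same HH mouse. LH and HL were lower than HH on both of these 2. The clock gene signal was summed from Cy3 values not normalized between arrays. By that sum, the HH replicate with the lowest *Pdk4* was highest of its group (14.64) and the one with the highest *Pdk4* lowest (12.76). By the mean normalized ratio of the clock genes, the former was again highest (0.63). The lowest was then HH replicate 3 (-0.25), and the replicate with the highest *Pdk4* stood at -0.05. The sum was 12.76 to 14.64 in HH, 14 to 15.58 in HL, 13.29 to 15.44 in LH and 13.35 to 15.29 in LL. The mean ratio was -0.25 to 0.63 in HH, 0.41 to 0.82 in HL, 0.4 to 0.86 in LH and 0.08 to 0.78 in LL. Of 12 clock genes, 6 had a higher mean in HL, and 5 a higher and 1 a lower mean in LH, at an unadjusted p under 0.05, and 0 passed the FDR. Of all 18433 named genes, 400 were higher and 513 lower in HL at that p, and 1081 were higher and 1462 lower in LH. The part of the clock genes in the *Pdk4* values was not tested.

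**Figure D3:**
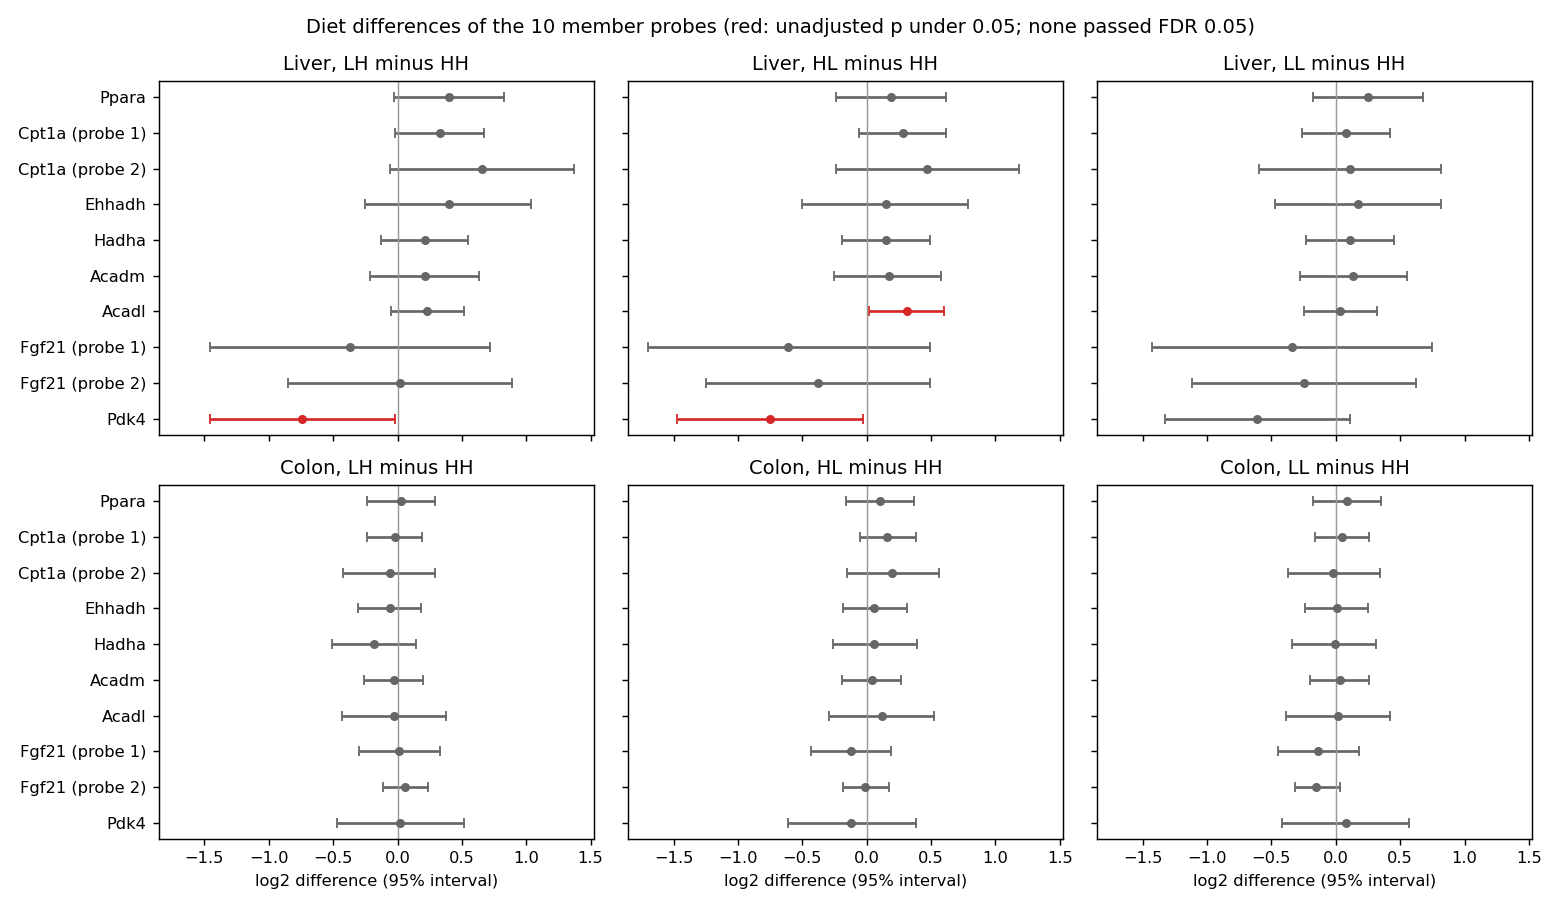
Log2 difference from HH (horizontal axes, 95% interval) of each probe in LH, HL and LL, for liver (top) and colon (bottom); red marks an unadjusted p under 0.05. The red intervals in liver were *Pdk4* in LH (-0.74) and HL (-0.75) and *Acadl* in HL (0.31), all with adjusted p of 0.408 or more, and in colon there was none.

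In colon the groups lay closer together. For HH *vs.* LH, 4 of 10 probes were higher and 6 lower in LH, with a median of -0.02, none under an unadjusted p of 0.05 (3.24% of all probes were) and the lowest adjusted p at 1. LH had the lowest mean of the 4 groups for 5 genes, *Cpt1a*, *Ehhadh*, *Hadha*, *Acadm* and *Acadl*, and HL the highest for those and *Ppara*, but by the brighter probe of each gene the means spanned only 0.07 (*Acadm*) to 0.25 (*Hadha*). *Hadha* ran from -0.04 to 0.80 in HH and from -0.13 to 0.46 in LH, and its difference of -0.18 (SE 0.16, 95% interval -0.51 to 0.14) was the widest of the 10. *Pdk4* ran from -2.69 to -1.65 in HH and from -2.60 to -1.39 in LH, a difference of 0.02 (95% interval -0.47 to 0.52). The intervals of *Ppara* (-0.24 to 0.29), *Cpt1a* (-0.24 to 0.19) and *Acadm* (-0.26 to 0.20) covered differences of at most 0.29 in either direction. LL *vs.* LH had 1 of 10 probes under an unadjusted 0.05 (2.8% of all probes), the second *Fgf21* probe at -0.21, which was well above background on 0 of 24 colon arrays. All other colon contrasts had 0 of 10, against 1.46% of all probes for HL *vs.* HH, 1.72% for LL *vs.* HH, 1.02% for LL *vs.* HL, 2.95% for LH *vs.* HL, 2.11% for dam diet, 2.04% for offspring diet and 1.79% for the interaction.

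Whether the differences between diets were unequal in the tissues was tested directly, and 0 of 10 probes passed for LH *vs.* HH, HL *vs.* HH, LL *vs.* HH, the 2 main effects or the interaction, where 0% of all probes passed. At an unadjusted p under 0.05 there were also 0 of 10 in each, against 7.53%, 2.09%, 2.44%, 3.52% (dam), 1.67% (offspring) and 4.33% of all probes in that order. The LH minus HH difference was higher in liver than in colon by 0.37 for *Ppara* (95% interval -0.13 to 0.87), 0.35 for *Cpt1a* (-0.05 to 0.75), 0.40 for *Hadha* (-0.08 to 0.87) and 0.46 for *Ehhadh* (-0.22 to 1.14), and lower by -0.76 for *Pdk4* (-1.63 to 0.11).

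Around these genes, 0 of the 87 measured genes of the pathway lists (88 listed), the 8 left out, passed in any diet comparison. For HH *vs.* LH in liver 10 of the 87 had a higher and 3 a lower mean in LH at an unadjusted p under 0.05. Of all 18433 named genes, 1081 were higher and 1462 lower at that p. The median difference was 0.13, against -0.02 over named genes and 0.28 for the 4 measured hepatocyte markers. The 3 with the lowest p were *Acsl1*, which activates long-chain fatty acids (0.52, SE 0.16, adjusted p = 0.241), *Slc27a2*, a very long chain acyl-CoA synthetase of peroxisomes (0.64, SE 0.20, adjusted p = 0.241), and *Vnn1*, a pantetheinase (0.83, SE 0.27, adjusted p = 0.253). *Acsl1* ran from 0.89 to 1.58 in HH, 1.46 to 2.51 in LH and 1.42 to 1.78 in LL. *Slc27a2* ran from -0.50 to 0.08 in HH and from -0.03 to 0.99 in LH, and *Vnn1* from -0.09 to 0.90 and from 0.56 to 2.12. Each of the 3 thus overlapped between HH and LH by part of its range. In colon the 3 with the lowest p were *G0s2* (-0.42), *Ppard* (0.16) and *Rxra* (0.18), with an adjusted p of 1 for each.

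The genes differed in how much they varied between mice on the same diet. The residual SD in liver was larger than that of 99.8% and 99.4% of bright probes for the 2 *Fgf21* probes, 98.5% for *Pdk4*, 98.3% for the dim *Cpt1a* probe and 97.6% for *Ehhadh*, but only 56.4% for *Acadl*. In colon *Pdk4* was again variable, above 97.8% of bright probes, and so was *Acadl* (95.2%), while *Ehhadh* (56.2%) and *Acadm* (51.5%) were near the middle. For *Acadl* the liver SD over all mice was 0.26 and the colon SD 0.35, and for *Ehhadh* 0.54 and 0.21.

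In colon much of that spread lay between slides. Each slide carried 1 array of each diet group, and slide took up 77.9% of the within-group variance of *Acadl*, 75.8% of *Cpt1a*, 72.1% of *Hadha*, 70.2% of *Acadm* and 68% of *Ehhadh*, where the median bright probe had 60.3%. *Ppara* (10.6%) and *Pdk4* (32.8%) were low in that respect. In liver the slide took up 27.1% of *Acadl* to 58.1% of *Fgf21*, around a median of 40.4% of bright probes. With slide as a block, LH minus HL in colon was -0.19 for *Cpt1a* (SE 0.06, unadjusted p = 0.00776, adjusted p = 0.473) and -0.25 for *Hadha* (SE 0.10, adjusted p = 0.525). Among the colon contrasts of that fit, this one had the most of the 10 probes under an unadjusted 0.05, namely 3. The share of all probes in that fit is not given here. Without the block it had 0 of 10, against 2.95% of all probes.

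**Figure D4:**
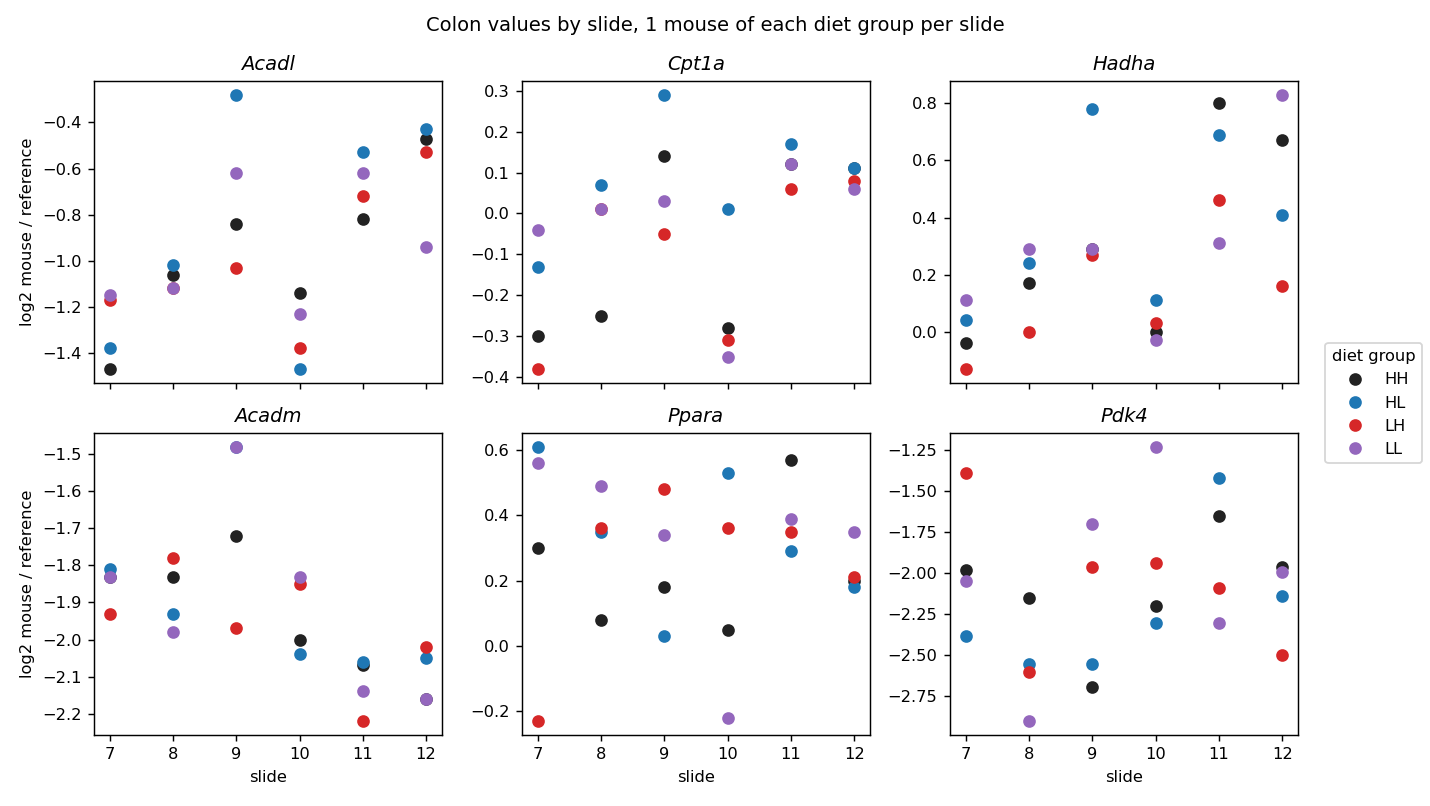
Log2 ratio in colon (vertical axes) against slide number (horizontal axes), with 1 mouse of each diet group, shown by colour, on every slide. *Acadl* lay between -1.47 and -1.15 for the 4 mice of slide 7 and between -0.94 and -0.43 for those of slide 12, and *Cpt1a*, *Hadha* and *Acadm* also moved by slide, whereas *Ppara* and *Pdk4* scattered within slides.

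Over the 23 livers, taken as deviations from the group means, the 5 oxidation enzymes varied together, with r from 0.42 to 0.74 over their 10 pairs, and from 0.43 to 0.87 once slide means were also removed. These are descriptions over mice that share slides. *Ehhadh* and *Acadm* were among the closest (0.74, and 0.87 without slide), and *Cpt1a* with *Acadm* (0.73). Over these mice *Ppara* had r from -0.31 to 0.16 with the 5 enzymes. All r of *Ppara* in liver include HH replicate 3, whose *Ppara* was the lowest of all livers (0.39). Its *Cpt1a* (0.73), *Ehhadh* (1.07), *Acadm* (-0.21) and *Acadl* (0.97) were the highest of HH, and its *Hadha* (1.12) was not. The r without that mouse were not computed, so how far they rest on it was not tested. *Pdk4* and *Fgf21* went together (0.56) and against *Ppara* (-0.64 and -0.42) and *Cpt1a* (-0.51 and -0.50). With slide means removed, *Pdk4* and *Fgf21* had 0.47 with each other, -0.59 and -0.08 with *Ppara*, and -0.36 and -0.35 with *Cpt1a*, so that *Fgf21* no longer went against *Ppara*. In colon *Acadl*, *Cpt1a*, *Ehhadh* and *Hadha* had r from 0.62 to 0.83 with each other, and *Acadm* from -0.31 to -0.08 with those 4. That division did not hold within slides. With slide means removed, *Acadl* had 0.02 with *Cpt1a*, -0.25 with *Ehhadh* and -0.09 with *Hadha*, and 0.51 with *Acadm*. *Ehhadh* and *Hadha* stayed together at 0.61, and *Cpt1a* had 0.25 and 0.22 with them.

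**Figure D5:**
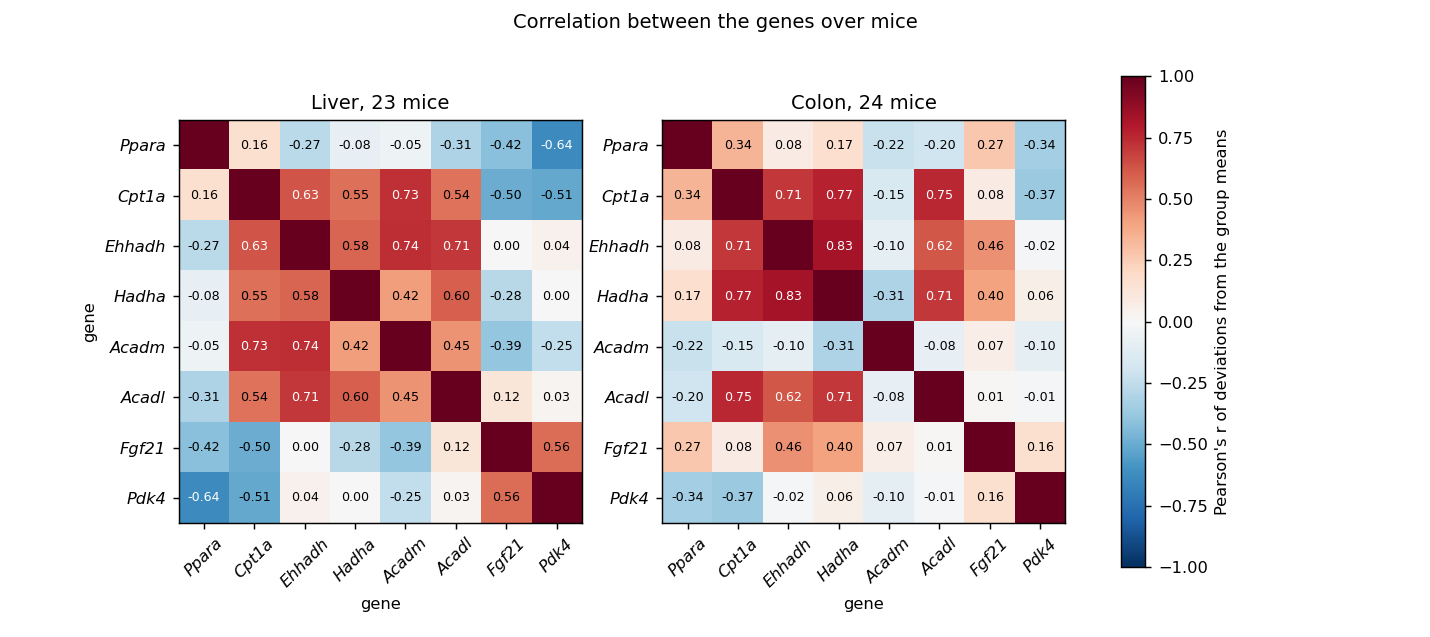
Pearson's r between each pair of genes over mice, as deviations from the diet group means, in 23 livers (left) and 24 colons (right), from blue (-1) over white (0) to red (1). The block of *Cpt1a*, *Ehhadh*, *Hadha*, *Acadm* and *Acadl* was positive in liver (0.42 to 0.74). *Ppara* and *Pdk4* were opposed there (-0.64), with HH replicate 3 included. In colon *Acadm* had -0.31 to -0.08 with the other 4. Slide differences were not removed in either panel.

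Among 20494 bright probes, the named gene whose liver pattern over the 23 mice was most like each of the 8, by r of deviations from the group means, was *Cyp4a12b* for *Ehhadh* (0.86), a member of the microsomal fatty acid hydroxylases, *Kcmf1* for *Acadm* (0.94), *Ctbs* for *Acadl* (0.82) and *Cops5* for *Hadha* (0.88). It was *Ppp1r2* for *Cpt1a* (0.87), *Dedd2* for *Ppara* (0.81), *Mdm2* for *Fgf21* (0.89) and *Tor3a* for *Pdk4* (0.87). Each was picked as the highest r of many in liver, so a lower r in colon can follow from the choice alone. The colon values therefore say nothing of a difference between tissues. There *Dedd2* had -0.03 with *Ppara*, *Ctbs* -0.06 with *Acadl*, *Cyp4a12b* -0.62 with *Ehhadh* and *Mdm2* 0.16 with *Fgf21*. *Tor3a* had 0.38 with *Pdk4*, *Cops5* 0.53 with *Hadha*, *Ppp1r2* 0.78 with *Cpt1a* and *Kcmf1* 0.81 with *Acadm*. With slide means removed, the liver r ran from 0.7 (*Mdm2*) to 0.88 (*Ctbs*). *Alb*, the albumin gene, was second for *Acadm* in liver (0.91).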

How the data were processed

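RNA of liver (23 mice) and colon (24 mice, which may be the same animals) was read on 48 2-colour arrays. Per the file headers, the deposited scanner files hold spot intensity values from Feature Extraction, not yet normalized, with local background beside them. A second deposited file holds log2 ratios of normalized signal made by the authors (limma and R 3.0.2 are named in the submitters' processing notes), whose sign was turned and which was used as an alternative. Sources differ on whether the common reference RNA was whole mouse with foetus or liver and intestine. Skeletal muscle markers lay far below the reference in both tissues, *Acta1* at -4.66 in liver and -4.68 in colon. Which source is right was not tested. A common reference drops out of differences between groups except through the normalization. With the Cy3 channel alone, *Pdk4* liver minus colon moved from -0.08 to 0.27.

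Median signals were background-corrected here (normexp, offset 50, with a local background brighter than its spot set to the array median), loess-normalized and expressed as log2 Cy3 over Cy5. Control and outlier spots were left out, spots of a probe averaged, and the 2 arrays of one HH liver mouse averaged. Tests used limma 3.58.1 in R 4.3.3 (lmFit, eBayes, Benjamini-Hochberg adjustment over all probes). They were run on simulated data with noise drawn independently for each probe and mouse. No slide effect was simulated, so that check says nothing of false calls that slides may bring. Array number limits the precision. Genes were named as every probe of the 8, from the wider lists any called for diet and the 3 lowest p for HH *vs.* LH per tissue, and the likest gene in liver; other list genes named for liver against colon were chosen after their values were seen. The 8 genes, lists and tests were chosen with earlier results of these data known. Alternatives covered background, normalization, channel, slide, position, dim probes, weights, samples in the fit, *Xist* (log2 Cy3 over 8.5) and each mouse left out.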

Additional observations from a re-analysis of the deposited data

Results flagged for a closer look

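Of 80 checks, each of 1 probe in 1 group of mice, 7 found a mouse whose gap to its nearest neighbour was large for the group's range. Chance marks about 1 in 20 separate checks. These checks share mice, and some share a gene, so they are not separate. *Ppara* was 2.18 in liver LL replicate 5 against 1.62 in the next mouse. In colon LL replicate 4, *Ppara* was -0.22 (next 0.34) and *Cpt1a* (A_51_P427674) was -0.35 (next -0.04), and this mouse also had the highest myeloid and Kupffer marker sum of all colons, 15.38 against 11.68 to 12.01 in the other LL colons, and the lowest clock gene sum of its group, 13.6. The second *Cpt1a* probe (A_52_P219753) was 0.87 in colon HH replicate 3 (next 0.11) and 1.02 in colon HL replicate 3 (next 0.30), both on slide 9. *Pdk4* was -1.42 in colon HL replicate 5 (next -2.14). *Fgf21* (A_52_P235347) was 0.40 in colon LH replicate 4 (next -0.52), the one colon array with this probe well above background. What lies behind these values was not tested.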

How the results depend on the processing

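Under every alternative run, 0 of 10 probes were called for every diet contrast, also with each mouse left out (range 0 to 0). For liver minus colon the 9 of 10 stayed 9 with single mice left out (9 to 9), and became 8 with the Cy3 channel alone and with processed signals and 7 with median centring, of which 1, *Pdk4*, was then lower in liver. With median centring, *Cpt1a* (0.19 and 0.10) and *Hadha* (0.20) lost the call and *Pdk4* gained one (-0.69). *Cpt1a* (A_51_P427674) fell below the fold threshold with the Cy3 channel alone (0.46) and with processed signals (0.57). *Pdk4* liver minus colon turned to 0.27 with Cy3 alone and to 0.03 with the background as deposited. For the second *Fgf21* probe, LH minus HH in liver turned from 0.02 to -0.19 with the 2 arrays of one mouse as 2 mice, -0.08 with Cy3 alone, -0.09 with array position, -0.13 with median centring, -0.13 with processed signals and -0.10 with the replicate block, and ran from -0.33 to 0.32 with single mice left out. Over all probes, liver minus colon gave 12491 calls, but 24221 with median centring, 20275 with processed signals and 28650 at FDR alone, and the 0 calls for LH *vs.* HH in liver became 106 with all 8 groups in one fit, 18 with only those groups, 6, 3 and 1 with 2 arrays as 2 mice, weights and position. The liver interaction became 499 with weights and 52 with 8 groups in one fit, and the LH *vs.* HH difference between tissues became 11 with weights. The cause was not tested. Slide equals replicate number and served as the replicate block; it changed no call of the 8 genes. Limits are the 5 or 6 mice per group and, for *Fgf21* in colon, signal near background.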
